A study of Mus musculus with 27 samples.

Results

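T-box genes encode transcription factors that share a DNA-binding domain, and 8 of the 17 mouse T-box genes, which are known for their roles in the heart, the limb and the neighbouring mesoderm, were followed through a differentiation of mouse embryonic stem cells toward the gonad. The 8 genes, *Tbx1*, *Tbx2*, *Tbx3*, *Tbx4*, *Tbx5*, *Tbx15*, *Tbx18* and *Tbx20*, were matched by symbol among 48795 genes. All 8 passed the filter on low counts. T-box factors bind as activators or repressors next to partners such as GATA and NK homeodomain proteins, and a field of cells is often marked by which T-box genes it uses. *Tbx5* is needed to start the forelimb bud and to form the atria, *Tbx4* marks the hindlimb field, the allantois and the lung mesenchyme, and *Tbx18* marks the epicardium, the sinus horns and the mesenchyme of the ureter. *Tbx20* acts in the heart muscle, *Tbx2* and *Tbx3* are repressors of the atrioventricular canal and the limb margins, *Tbx15* acts in limb and dermal mesenchyme and *Tbx1* in the pharyngeal region and the cells that build the outflow tract.

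Bulk RNA-seq covered 9 groups with 3 libraries each. All came from XY cells of 1 clone (clone 7) of strain F1 C57BL/6 x CBA that carries Tesco-CFP, a fluorescent reporter driven by an enhancer of *Sox9* in Sertoli cells, and R26-rtTA, a transactivator that works only with doxycycline. The groups therefore describe the behavior of a single cell line. ESC are the embryonic stem cells. EpiSC are epiblast-like cells after 60 h in Activin A (20 ng/ml) and bFGF (12 ng/ml), a fibroblast growth factor, and M are early mesoderm cells that then spent 36 h with the phosphatidylinositol kinase inhibitor LY294002 (10 µM), BMP4 (10 ng/ml), which is a bone morphogenetic protein, and bFGF (20 ng/ml). The conditions toward intermediate mesoderm, IM1 to IM5, all had bFGF (5 ng/ml) and BMP4 (20 ng/ml). Nothing else was added in IM1, retinoic acid (100 nM) was added in IM3, retinoic acid and Activin A (10 ng/ml) in IM2, and retinoic acid with CHIR99021 (0.3 µM), an inhibitor of GSK3, in IM4. IM5 received all of these agents. The iSLC are IM3 cells that were infected with lentiviruses for *Nr5a1* and *Dmrt1*, induced with doxycycline, moved to a Sertoli medium with Activin A among its additives and sorted by CFP, so that these steps cannot be told apart in them. The libraries of a group are biological replicates by the study's description. The labels do not say that they are separate cultures, and the p-values measure the spread between these libraries, which may in part be technical.

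Levels are given as TPM, transcript abundance scaled for transcript length and sequencing depth, which allows genes to be compared with each other. Differences are log2 fold changes from edgeR on the expected counts, with the standard error (SE). To be called differentially expressed (DE), a gene had to change by 2-fold or more with an adjusted p not above 0.01. Its normalized read count also had to average 100 or more, both across the 27 libraries and in either group of the comparison. A lower level in bulk RNA can mean fewer expressing cells or less RNA per cell, which cannot be told apart here. Total expected counts were 35923040 to 84876603 per library. The summed TPM of 6 red blood cell genes separated the libraries into high values in ESC, M, IM3 and IM4 (11.7 to 91.0) and low ones in EpiSC, IM1, IM2, IM5 and iSLC (1.57 to 4.54). A sum of 4 embryonic globin and erythroid genes was only 0.19 to 0.8 TPM in ESC and 0.08 to 0.43 TPM in M. Whether the separation reflects a content of blood cells was not tested. Of the labelled tissues, the summed TPM of 5 intermediate mesoderm genes was 13.1 to 14.2 in IM1, 139 to 167 in IM3 and 21.7 to 128 in the other IM conditions, within which *Pax2* averaged 0.0367 to 0.22 TPM and *Osr1* 0.98 to 4.74 TPM in the IM groups. The list did not move together. *Wt1*, which is also in the early gonad list, averaged 456 normalized reads in IM1 and 9647 in IM3. *Osr1* went the other way, from 230 to 68.2. In IM3 against IM1 a second test, DESeq2, called 1 of the 5 genes higher and 2 lower. The sum of 7 early gonad genes was 85.0 to 97.0 TPM in IM1 and 509 to 548 TPM in IM3, and that of 7 Sertoli cell genes was 42.3 to 51.9 TPM in IM3 and 307 to 351 TPM in iSLC, where the hormone gene *Amh* averaged 0.56 TPM. The Sertoli list includes *Nr5a1* and *Dmrt1*, which the lentiviruses carried. A rise of its sum in iSLC was therefore set by the design and does not measure the cells' own Sertoli genes. Heart genes were present in the IM conditions, with sums of 571 to 793 TPM for 12 heart field genes, among which *Nkx2-5* did not average more than 2.86 TPM, and of 224 to 913 TPM for 12 heart muscle genes.

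The 8 genes lie at chr16:18580979-18590671 (*Tbx1*), chr11:85832551-85841948 (*Tbx2*), chr5:119670669-119684724 (*Tbx3*), chr11:85886422-85916097 (*Tbx4*), chr5:119832668-119885219 (*Tbx5*), chr3:99240381-99354259 (*Tbx15*), chr9:87702800-87731260 (*Tbx18*) and chr9:24718138-24774303 (*Tbx20*) of GRCm38. *Tbx2* and *Tbx4* are neighbours on the plus strand of chromosome 11 with 44473 bases between them, and *Tbx3* and *Tbx5* lie in the same order on the plus strand of chromosome 5 with 147943 bases between them. *Tbx1*, *Tbx18* and *Tbx20* are on the minus strand and *Tbx15* on the plus strand. Promoter sequences of RefSeq (GRCm38.p6) were matched for *Tbx1*, *Tbx4*, *Tbx18* and *Tbx20*. The 250 bases before the start sites of *Tbx4* and *Tbx18* are shown because these 2 genes moved in opposite directions with retinoic acid and with Activin A. Capitals mark matches, on either strand, to the letters TATAA that define a TATA box and, in the other gene, to CCAAT, which were both added to the search after the windows had been seen. The *Tbx4* window is chr11:85896515-85896764 on the plus strand, before a start site 10343 bases downstream of the first start site that the Ensembl annotation gives, and holds no annotated exon bases. The *Tbx18* window is chr9:87731261-87731510 on the minus strand and ends at the annotated gene start.
Tbx4: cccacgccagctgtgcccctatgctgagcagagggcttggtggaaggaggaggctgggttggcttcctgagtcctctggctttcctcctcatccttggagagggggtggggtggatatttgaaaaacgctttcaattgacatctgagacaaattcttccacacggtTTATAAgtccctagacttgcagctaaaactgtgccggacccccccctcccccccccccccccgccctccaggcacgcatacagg
Tbx18: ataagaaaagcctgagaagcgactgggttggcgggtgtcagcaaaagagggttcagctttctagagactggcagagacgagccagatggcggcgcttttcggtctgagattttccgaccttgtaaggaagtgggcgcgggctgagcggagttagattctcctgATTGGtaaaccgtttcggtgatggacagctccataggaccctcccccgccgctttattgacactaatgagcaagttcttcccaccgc
The *Tbx4* window holds TATAA on both strands in 1 overlapping block that begins 84 bases before the start site, and the *Tbx18* window holds CCAAT once, on the other strand, 87 bases before it. Among 32851 RefSeq promoter windows of the same length, 22.8% hold TATAA and 33.8% hold CCAAT on either strand. Neither window holds the retinoic acid receptor half-site AGGTCA (14% of all windows), the TCF/LEF site CTTTGA (13.8%), the FOXH1 site AATNCACA (3.18%) or the T-box half-site AGGTGT (11.8%). These are letter matches in a short window, not sites shown to be bound.

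**Figure D1:**
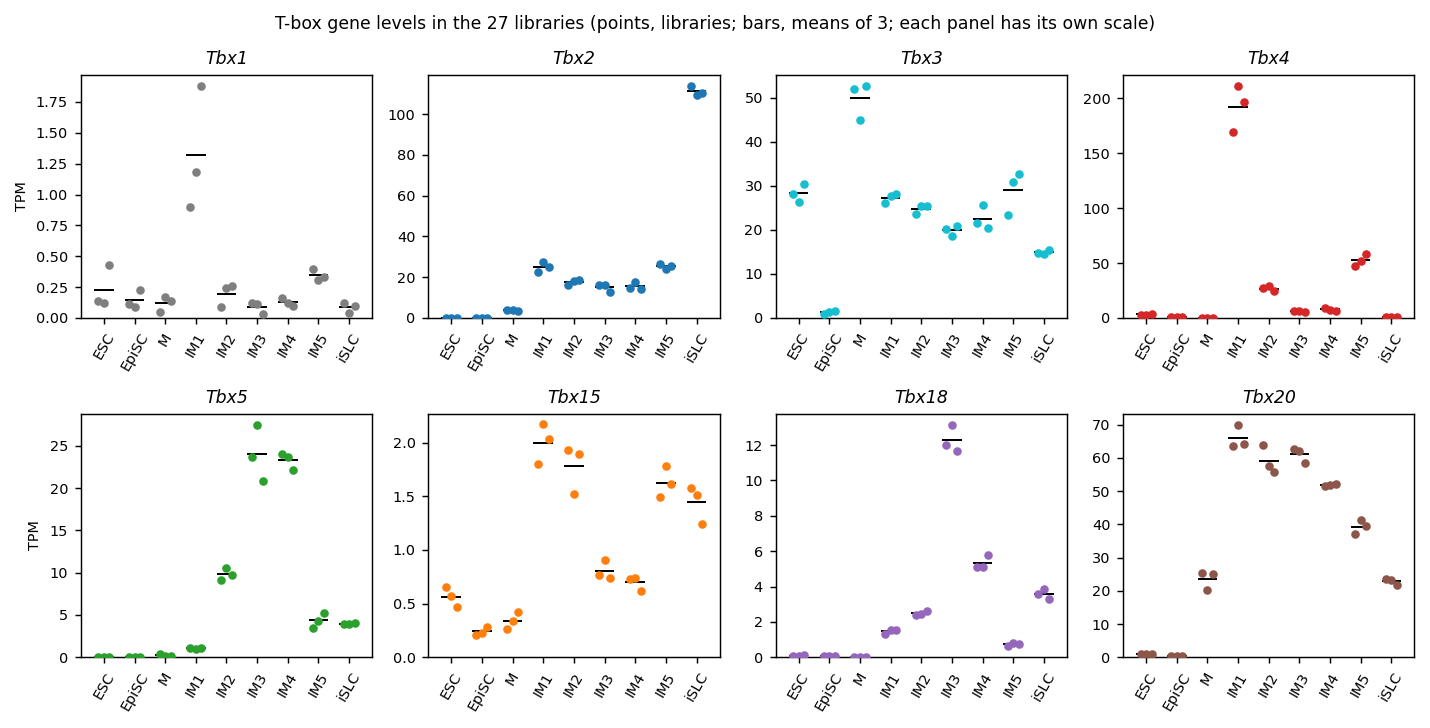
Level of each of the 8 T-box genes in TPM (vertical axis, linear, from 0, with its own scale in each panel) in the 27 libraries by group (horizontal axis), with points for libraries and bars for the mean of 3. *Tbx4* stood at 170 to 211 TPM in IM1 and *Tbx5* at 20.9 to 27.4 TPM in IM3, and *Tbx2* reached 109 to 114 TPM in iSLC.

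In the early stages 3 of the 8 genes were called at each step. *Tbx3*, which is known to support the pluripotent state, measured 28.1, 26.3 and 30.5 TPM in the ESC libraries, 0.93, 1.32 and 1.53 TPM in EpiSC and 52.0, 45.0 and 52.7 TPM in M. Its log2 fold change was −4.71 (SE 0.0884) from ESC to EpiSC and 5.38 (SE 0.0893) from EpiSC to M. *Tbx20* was at 0.90 to 1.00 TPM in ESC, 0.33 to 0.40 TPM in EpiSC and 20.4 to 25.4 TPM in M, and *Tbx2* at 0.14 to 0.20 TPM in ESC and in EpiSC against 3.56 to 3.85 TPM in M. The libraries of M were high for these genes, with log2 fold changes of 6.11 (SE 0.0809) for *Tbx20* and 4.39 (SE 0.180) for *Tbx2*. The calls from ESC to EpiSC were *Tbx3*, *Tbx4* (−2.19, SE 0.155) and *Tbx20* (−1.52, SE 0.101), all lower, where 8.07% of 20839 genes tested were called (3.75% higher and 4.32% lower). From EpiSC to M, *Tbx2*, *Tbx3* and *Tbx20* were called, all higher, against 14.5% of all genes (6.79% higher and 7.72% lower). *Tbx5* was listed at 0, 0 and 0.01 TPM in EpiSC and at 0.33, 0.12 and 0.20 TPM in M, and stayed below the count minimum in this comparison. So did *Tbx4* (−1.51, SE 0.253) and *Tbx18* (−1.55, SE 0.39), which were lower in M. From ESC to EpiSC, *Tbx15* (−1.14, SE 0.182) was lower below that minimum.

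Other T-box genes mark the early mesoderm. *T* (Brachyury), which is required for posterior mesoderm, averaged 2.53 TPM in ESC, 238 TPM in EpiSC and 502 TPM in M, *Eomes* 4.53, 95.1 and 158 TPM, and *Tbx6* 0.663, 0.97 and 29.0 TPM. All 3 were then called lower in IM1 than in M, with log2 fold changes of −6.51 (SE 0.150), −6.36 (SE 0.116) and −5.18 (SE 0.157). *Mga*, a broadly expressed T-box gene, stayed between 39.4 and 67.3 TPM on average in all 9 groups. *Tbr1* and *Tbx21* did not average more than 0.423 TPM in any group, and *Tbx10*, *Tbx19* and *Tbx22* did not pass the filter on low counts.

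From M to IM1 and to IM3, the IM conditions that were tested against M, most of the 8 genes were called higher. Between M and IM1, 6 of the 8 were called, all higher, where 15.7% of all genes tested were called (9.72% higher and 5.94% lower). *Tbx4* averaged 0.25 ± 0.0458 TPM in M and 192 ± 21.0 TPM in IM1 (SD, n = 3), a log2 fold change of 9.50 (SE 0.158). *Tbx18* was at 0.01 to 0.03 TPM in M and at 1.34 to 1.54 TPM in IM1 (5.84, SE 0.220). The others were *Tbx2* (2.64, SE 0.104), *Tbx15* (2.45, SE 0.161), *Tbx5* (2.06, SE 0.205) and *Tbx20* (1.36, SE 0.0557). *Tbx3* had a log2 difference of −0.90 (SE 0.0682, adjusted p = 6.29e-12) that did not reach the fold minimum. Between M and IM3, which also added retinoic acid, *Tbx18* (8.82, SE 0.187), *Tbx5* (6.50, SE 0.167), *Tbx4* (4.43, SE 0.186), *Tbx2* (1.80, SE 0.106) and *Tbx20* (1.17, SE 0.0557) were called higher and *Tbx3* (−1.57, SE 0.0706) lower, against 14.9% of all genes (9.26% higher and 5.66% lower). The 2 comparisons share the M libraries.

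Addition of retinoic acid (IM3 against IM1) was accompanied by a rise of *Tbx5* and *Tbx18* and a fall of *Tbx4* and *Tbx15*, so that 4 of the 8 genes were called where 6.34% of all genes were called (2.62% higher and 3.72% lower). *Tbx5* measured 1.05, 1.01 and 1.1 TPM in the IM1 libraries and 23.7, 27.4 and 20.9 TPM in IM3. Every IM3 library lay above every IM1 library, with a 21.7-fold higher level (log2 fold change 4.44, SE 0.133, adjusted p = 1.81e-19). *Tbx18* measured 1.34, 1.54 and 1.52 TPM in IM1 and 12.0, 13.1 and 11.7 TPM in IM3, again without overlap (7.87-fold, log2 2.98, SE 0.106, adjusted p = 5.09e-18).

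*Tbx4*, the hindlimb counterpart of *Tbx5*, was at 170, 211 and 196 TPM in IM1 and at 6.58, 6.42 and 5.50 TPM in IM3. It was the most abundant of the 8 genes in IM1 and, by mean TPM, the sixth of the 8 in IM3. It fell by 5.07 on the log2 scale (33.5-fold lower, SE 0.112, adjusted p = 9.56e-22). *Tbx15* was far lower in level, with 1.80, 2.17 and 2.03 TPM in IM1 and 0.77, 0.91 and 0.74 TPM in IM3, and fell by 1.4 (SE 0.150, adjusted p = 1.26e-08). *Tbx1* measured 0.90, 1.18 and 1.88 TPM in IM1 and 0.12, 0.11 and 0.03 TPM in IM3, a log2 difference of −3.97 (SE 0.532) in a gene under the count minimum. *Tbx2* (−0.84, SE 0.0940), *Tbx3* (−0.68, SE 0.0698) and *Tbx20* (−0.18, SE 0.0544) had smaller differences that were not called. That of *Tbx2* lay between −0.854 and −0.307 over 11 alternative settings of the processing. *Tbx20* was at 63.7 to 69.8 TPM in IM1 and at 58.4 to 62.6 TPM in IM3, and the 95% interval of its log2 difference was −0.29 to −0.08.

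The comparison of IM2 with IM1 added retinoic acid and Activin A together and called *Tbx4* and *Tbx5* in the same directions, where 3.51% of all genes were called (1.94% higher and 1.56% lower). *Tbx4* was at 27.1, 29.0 and 24.2 TPM in IM2 (−2.92 against IM1, SE 0.0972) and *Tbx5* at 9.12, 10.6 and 9.75 TPM (3.17, SE 0.131). For *Tbx18* the log2 difference was 0.69 (SE 0.106) and for *Tbx15* −0.23 (95% interval −0.50 to 0.03), neither of them called. Markers of blood and endothelium moved in both comparisons. The red blood cell genes summed to 3.06 to 4.54 TPM in IM1, 1.62 to 1.86 TPM in IM2 and 21.3 to 74.4 TPM in IM3, and of the 6 genes 2 were called higher in IM3 against IM1 and 0 in IM2 against IM1. The 4 embryonic globin and erythroid genes summed to 20.7 to 29.9 TPM in IM1, 6.19 to 7.15 TPM in IM2 and 96.7 to 119 TPM in IM3, with 3 called higher in IM3 against IM1 and 2 lower in IM2 against IM1. The 5 endothelial genes summed to 126 to 137 TPM in IM1, 74.0 to 78.6 TPM in IM2 and 46.3 to 54.3 TPM in IM3, with 4 called lower in IM3 against IM1 and, in IM2 against IM1, 2 lower and 1 higher. Their part in these results was not tested.

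**Figure D2:**
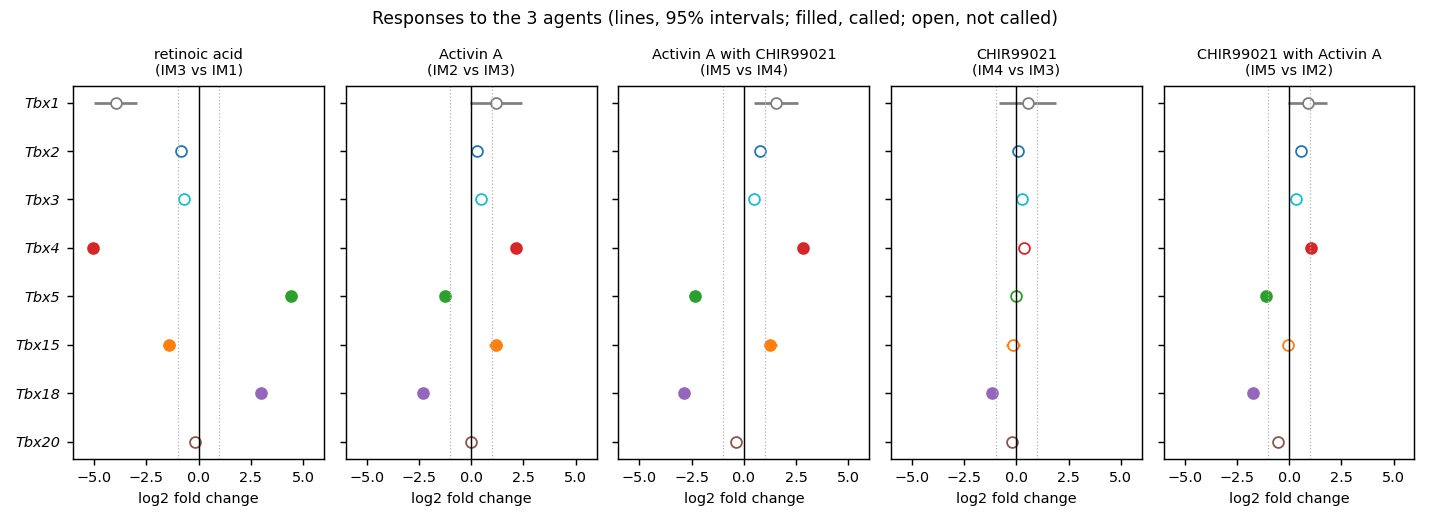
Log2 fold change (horizontal axis) of the 8 T-box genes (vertical axis) for retinoic acid, for Activin A without and with CHIR99021 and for CHIR99021 without and with Activin A, with lines for 95% intervals, filled points for called genes and open points for genes not called, and dotted lines at a fold of 2. *Tbx4* and *Tbx15* lie opposite to *Tbx5* and *Tbx18* in the retinoic acid panel and in both Activin A panels.

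With Activin A added to retinoic acid (IM2 against IM3), *Tbx4* and *Tbx15* were called higher and *Tbx5* and *Tbx18* lower, 4 of 8 where 3.8% of all genes were called (2.46% higher and 1.34% lower). *Tbx4* was at 24.2 to 29.0 TPM in IM2 against 5.50 to 6.58 TPM in IM3 (4.44-fold, log2 2.15, SE 0.106, adjusted p = 1.82e-14). *Tbx18* was at 2.37, 2.42 and 2.63 TPM in IM2 against 11.7 to 13.1 TPM in IM3 (4.89-fold lower, log2 −2.29, SE 0.102). *Tbx5* had a log2 fold change of −1.27 (SE 0.110) and *Tbx15* of 1.17 (SE 0.152). The comparison shares the IM3 libraries with that of retinoic acid, so a high or low value in IM3 enters both with opposite signs.

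The second Activin A comparison, IM5 against IM4, had CHIR99021 on both sides and shares no library with the first. It called the same 4 genes in the same directions, where 4.09% of all genes were called (2.63% higher and 1.46% lower). *Tbx4* was at 6.76 to 9.34 TPM in IM4 and at 46.9, 52.2 and 58.3 TPM in IM5 (7-fold, log2 2.81, SE 0.102, adjusted p = 5.45e-17). *Tbx5* was at 22.2 to 24.1 TPM in IM4 and at 3.51, 4.28 and 5.26 TPM in IM5 (5.07-fold lower, log2 −2.34, SE 0.115). *Tbx18* was at 5.08, 5.08 and 5.78 TPM in IM4 and 0.62, 0.82 and 0.73 TPM in IM5 (7.15-fold lower, log2 −2.84, SE 0.114). *Tbx15* differed by 1.27 (SE 0.150). The IM5 libraries were high for *Tbx4* and *Tbx15* and low for *Tbx5* and *Tbx18*.

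*Tbx2* and *Tbx3* had differences below the fold minimum in these comparisons. *Tbx2* was 0.26 higher on the log2 scale in IM2 than in IM3 (95% interval 0.072 to 0.445, libraries overlapping) and 0.76 higher in IM5 than in IM4 (SE 0.0931). With an offset for GC content the first of these turned to −0.20. The second lay between 0.172 and 0.778 over 11 alternative settings of the processing. *Tbx3* had log2 differences of 0.47 (SE 0.0701) and 0.50 (SE 0.0690), and *Tbx20* of −0.03 (95% interval −0.14 to 0.08) and −0.37 (SE 0.0547). The red blood cell genes summed to 30.8 to 72.1 TPM in IM4 and 1.88 to 3.04 TPM in IM5, so that both Activin A comparisons cross the separation of libraries. Of the embryonic globin and erythroid genes 3 of 4 were called lower in each, and of the endothelial genes 1 of 5, *Pecam1*, was called higher in each (1.15, SE 0.0961 and 1.03, SE 0.0946). Their part in the result was not tested.

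**Figure D3:**
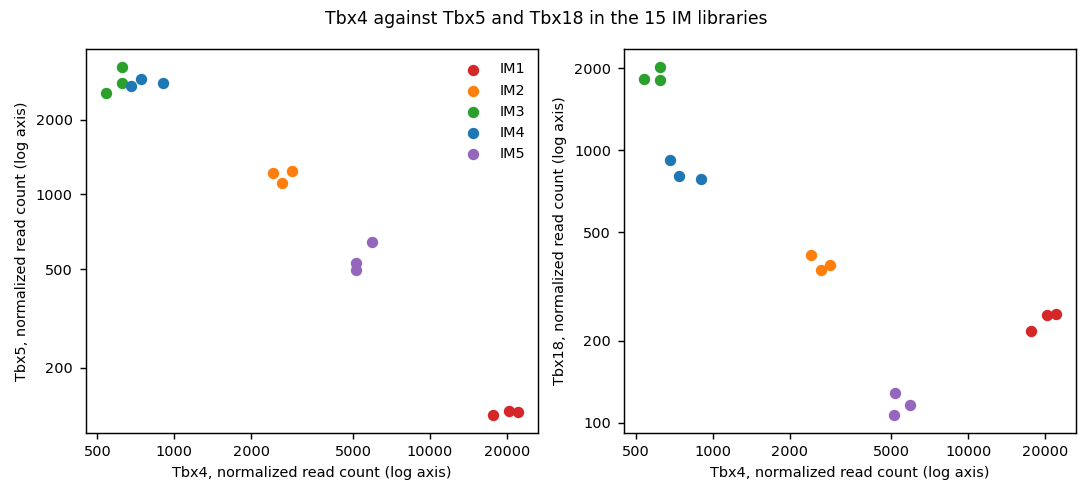
Normalized read count of *Tbx4* (horizontal axis, log) against that of *Tbx5* (left, vertical axis, log) and *Tbx18* (right, vertical axis, log) in the 15 IM libraries, with a color for each condition. IM1 libraries lie at 17610 to 22010 normalized reads of *Tbx4* and 129 to 134 of *Tbx5*, IM3 and IM4 libraries at the opposite corner, and IM2 libraries between them in both panels. IM5 libraries lie between them for *Tbx5* but below IM1 for *Tbx18*, at 107 to 128 normalized reads against 217 to 251.

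*Tbx4* and *Tbx5* thus had opposite orders over the IM conditions. The order for *Tbx4* was IM1, IM5, IM2, IM4, IM3 from high to low, with no overlap of libraries between neighbours, although the difference of IM4 and IM3 did not pass the test (log2 0.37, SE 0.111, adjusted p = 0.0926). For *Tbx5* the order was IM3, IM4, IM2, IM5, IM1, with overlap between IM3 and IM4 alone. *Tbx18* had the order IM3, IM4, IM2, IM1, IM5 without overlap between neighbours. *Tbx15* was at 1.80 to 2.17 TPM in IM1, 1.52 to 1.93 TPM in IM2 and 1.49 to 1.78 TPM in IM5, which overlapped, and at 0.62 to 0.91 TPM in IM3 and IM4.

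With CHIR99021 added to retinoic acid (IM4 against IM3), *Tbx18* was called lower and was the single call among the 8 genes, where 0.101% of genes tested (21 of 20839) were called, 0% higher. *Tbx18* was at 5.08 to 5.78 TPM in IM4 against 11.7 to 13.1 TPM in IM3 (2.25-fold lower, log2 −1.17, SE 0.0973, adjusted p = 6.75e-08), and the libraries did not overlap. The other 7 genes were not called. Their log2 differences lay between −0.19 for *Tbx20* (SE 0.0546, adjusted p = 0.0691) and 0.53 for *Tbx1* (SE 0.691), and the interval of *Tbx5* was −0.24 to 0.18.

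With Activin A present (IM5 against IM2), CHIR99021 was accompanied by calls of 3 of the 8 genes, where 0.235% of genes (49 of 20839) were called (0.0432% higher and 0.192% lower). *Tbx18* fell by 1.72 on the log2 scale (SE 0.116), *Tbx5* fell by 1.1 (SE 0.114) and *Tbx4* rose by 1.03 (SE 0.0931). The rise of *Tbx4* was close to the fold minimum and was not called without IM2 replicate 3 (0.97), without IM5 replicate 3 (0.96) or with an offset for GC content (0.99). *Tbx20* was at 55.6 to 64.0 TPM in IM2 and at 37.0 to 41.4 TPM in IM5 without overlap, a log2 difference of −0.53 (SE 0.0547, adjusted p = 3.72e-07) under the fold minimum. IM4 against IM3 and IM5 against IM2 share no library. Of the 6 red blood cell genes 0 were called in either. The embryonic globin and erythroid genes summed to 96.7 to 119 TPM in IM3 and 130 to 213 TPM in IM4, with 0 of 4 called, and to 6.19 to 7.15 TPM in IM2 and 13.3 to 16.1 TPM in IM5, with 2 called higher. Their part in the result was not tested.

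For *Tbx5* the response to Activin A differed with CHIR99021. The interaction, which is the log2 fold change of IM5 against IM4 minus that of IM2 against IM3, was −1.07 (SE 0.156, adjusted p = 0.000666), and 0.0336% of genes (7 of 20839) were called in this test (0.0096% higher and 0.024% lower). CHIR99021 alone left *Tbx5* at 22.2 to 24.1 TPM against 20.9 to 27.4 TPM, but with Activin A the level was 3.51 to 5.26 TPM with CHIR99021 and 9.12 to 10.6 TPM without it. Without IM3 replicate 3 the value was −0.998 (adjusted p = 0.00335) and without IM5 replicate 1 it was −0.985 (adjusted p = 0.00222), both under the fold minimum, so that the call rests on its margin over a fold of 2 and on each of these libraries. *Tbx4* (0.66, SE 0.145, adjusted p = 0.0286), *Tbx20* (−0.335, SE 0.0772, adjusted p = 0.0397) and *Tbx18* (−0.55, SE 0.151, adjusted p = 0.105) were not called.

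**Figure D4:**
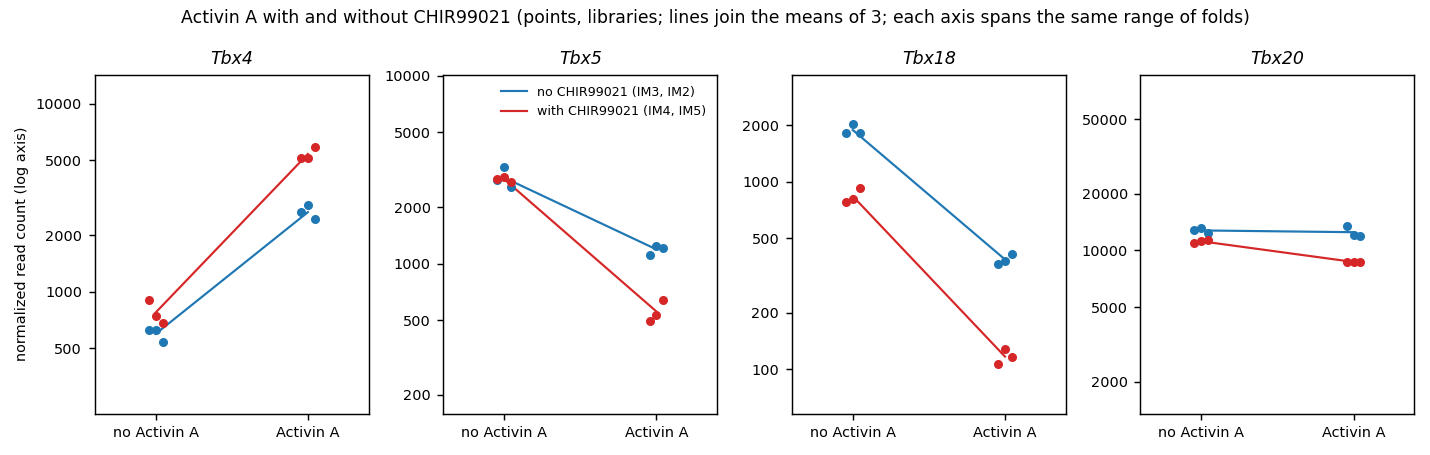
Normalized read count (vertical axis, log, each panel spanning the same range of folds) of *Tbx4*, *Tbx5*, *Tbx18* and *Tbx20* without and with Activin A (horizontal axis), in blue without and in red with CHIR99021, with points for libraries and lines joining the means of 3. The lines of *Tbx5* start together at 2551 to 3261 normalized reads and part with Activin A, to 1114 to 1243 without and 495 to 644 with CHIR99021.

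Among the other T-box genes, *T* and *Eomes* followed the agents as well. *Eomes*, which marks the primitive streak and endoderm progenitors and is a known target of Activin and Nodal signals, averaged 0.487 TPM in IM3 and 18.2 TPM in IM2 (5.26, SE 0.149), and 0.517 TPM in IM4 and 15.0 TPM in IM5 (4.91, SE 0.142). *T* averaged 6.18 TPM in IM1, 0.27 TPM in IM3 (−4.86, SE 0.329), 2.76 TPM in IM2 (3.46 against IM3, SE 0.405), 0.29 TPM in IM4 and 3.16 TPM in IM5 (3.10, SE 0.307). *Eomes* was called lower with retinoic acid alone (−2.19, SE 0.182) but higher in IM2 than in IM1 (3.07, SE 0.109). *Tbx6*, *Tbr1* and *Mga* were not called in any comparison among IM1 to IM5, and neither *T* nor *Eomes* was called for CHIR99021.

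Known partners of the limb T-box genes were counted from a list of 15. With retinoic acid, 3 were called higher and 6 lower (median log2 fold change −1.25, against 0 over all genes). *Hoxd13* (−3.27, SE 0.186) and *Hoxa13* (−3.12, SE 0.122), which pattern the distal limb and the hindgut region, fell, and *Meis1* (3.03, SE 0.0995), a marker of the proximal limb, rose. *Pitx1*, the hindlimb regulator upstream of *Tbx4* in the limb, averaged 139 ± 0.901 TPM in IM1, 31.8 ± 4.52 TPM in IM3, 105 ± 12.7 TPM in IM2, 44.0 ± 8.73 TPM in IM4 and 207 ± 5.61 TPM in IM5 (SD, n = 3). It was called lower with retinoic acid (−2.18, SE 0.113), higher with Activin A (1.74, SE 0.112 and 2.28, SE 0.112) and higher with CHIR99021 in the presence of Activin A (1.03, SE 0.107). *Tbx4* was called in the same direction in each of these comparisons. In IM2 against IM1, where *Tbx4* was called, *Pitx1* had a log2 difference of −0.44 (SE 0.106) that did not reach the fold minimum. *Fgf10*, a target of *Tbx5* in the forelimb bud and of *Tbx4* in the lung, averaged 1.92 TPM in IM1 and 10.4 TPM in IM3 (2.36, SE 0.106).

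With Activin A, 3 limb partners were called higher in IM2 against IM3 and 4 in IM5 against IM4, and none was called lower, with medians of 0.62 and 0.66. *Hoxa13* (1.95, SE 0.123 and 2.37, SE 0.117), *Pitx1* and *Hoxd13* (1.26, SE 0.192 and 1.77, SE 0.181) led. In each comparison 3 genes of the list were lower at an adjusted p of at most 0.05 but under the fold or count minimum. In IM2 against IM1, 3 limb partners were called higher, led by *Meis1* (2.44, SE 0.0980) and *Meis2* (1.76, SE 0.0817), and 3 lower, led by *Hoxd13* (−2.01, SE 0.165).

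Of 12 heart field partners, 3 were called higher with retinoic acid and 3 lower (median 0.28). *Gata5* (1.83, SE 0.128), *Gata4* (1.60, SE 0.0711) and *Gata6* (1.15, SE 0.0581), which encode partners of *Tbx5* and *Tbx20* in the heart, rose together, and *Isl1* (−2.35, SE 0.0921), a marker of second heart field and hindlimb progenitors, fell together with *Hand1* (−1.63, SE 0.0985) and *Hand2* (−1.01, SE 0.103). With Activin A, *Isl1* was called higher (1.42, SE 0.0934 and 1.80, SE 0.0895), and *Gata5* (−1.42, SE 0.127 and −2.23, SE 0.133) and the pacemaker channel gene *Hcn4* (−2.25, SE 0.159 and −1.80, SE 0.171) lower, in IM2 against IM3 and IM5 against IM4. *Hcn4* was also called lower with CHIR99021 in IM4 against IM3 (−1.31, SE 0.151) and in IM2 against IM1 (−1.82, SE 0.158), and *Gata5* in IM5 against IM2 (−1.05, SE 0.132).

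Of 12 genes known as targets of T-box factors, retinoic acid was accompanied by 1 call higher (*Fgf10*) and 4 lower, led by *Bmp2* (−3.00, SE 0.0710), *Cdh1* (−1.63, SE 0.0953) and *Sall4* (−1.57, SE 0.0676), with a median of −1.19. *Nppa*, the atrial peptide gene that *Tbx5* activates in the heart, averaged 1.65 TPM in IM1 and 0.357 TPM in IM3, and *Gja5*, another such target, 1.98 and 0.243 TPM. Both lay under the count minimum, and their relation to the level of *Tbx5* was not tested. With Activin A, *Cdkn2a* (1.49, SE 0.140 and 1.33, SE 0.134) and *Bmp2* (1.22, SE 0.0711 and 1.49, SE 0.0680) were called higher. In IM2 against IM1 there were 2 calls higher and 3 lower, with *Bmp2* (−1.78, SE 0.0649), *Fgf10* (1.68, SE 0.106) and *Cdh1* (−1.46, SE 0.0937) the largest.

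Heart muscle genes were counted from a list of 12. In IM3 against IM1, 5 were called higher, led by *Myh6* (2.41, SE 0.268), *Myl3* (1.74, SE 0.195) and *Actc1* (1.47, SE 0.162), with a median of 0.88. Lower were 6 in IM2 against IM3, 5 in IM5 against IM4, 6 in IM4 against IM3 and 5 in IM5 against IM2, with medians of −1.46, −1.21, −1.16 and −1.14 and *Myh6* leading in each (−3.29, −3.93, −2.17 and −2.81). *Myl7*, an atrial light chain gene, averaged 141 TPM in IM3 with the widest spread (SD 50.03, n = 3), 48.7 TPM in IM4, 32.4 TPM in IM2 and 5.62 TPM in IM5. In IM2 against IM1, *Myh7* was the single call (−1.35, SE 0.186). The 6 calls in IM4 against IM3 are among the 21 genes called there. Markers of mesothelium, the epithelium that covers the heart as epicardium and the coelomic organs, were summed as well. The 6 genes added up to 922 to 987 TPM in IM3, 708 to 749 TPM in IM4, 402 to 471 TPM in IM2, 330 to 346 TPM in IM5 and 430 to 524 TPM in IM1, and 4 of them (*Upk3b*, *Wt1*, *Upk1b* and *Lrrn4*) were called higher with retinoic acid and lower in each Activin A comparison. With CHIR99021 all 6 were lower in IM4 against IM3, but none was called. In IM5 against IM2 all 6 were lower as well, and *Upk3b* (−1.18, SE 0.172) and *Upk1b* (−1.06, SE 0.125) were called. Whether the share of such cells has a part in the *Tbx18* values was not tested.

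The agents' own response genes served as a check on the additions. Of 12 genes known to respond to retinoic acid, 7 were called higher in IM3 against IM1 (median 2.19), among them *Rarb* (5.71, SE 0.194) and *Cyp26b1* (4.60, SE 0.305). In IM2 against IM1, 7 were called higher and 1 lower, led by *Rarb* (5.12, SE 0.193), *Cyp26b1* (4.10, SE 0.301) and *Cyp26a1* (2.55, SE 0.149). With Activin A, 3 of them were called lower in each comparison, and 1 (*Cyp26a1*, 1.19, SE 0.141) higher in IM2 against IM3. Among the lower was *Aldh1a2*, the enzyme that makes retinoic acid in the mesoderm (−2.89, SE 0.131 and −1.77, SE 0.137). With CHIR99021, 2 were called lower in IM4 against IM3, *Aldh1a2* (−1.48, SE 0.120) and *Nr2f1* (−1.09, SE 0.136). Of 12 Activin and Nodal response genes, 8 were called higher in IM2 against IM3 and 7 in IM5 against IM4 (medians 2.24 and 2.07), with *Eomes*, *Lefty1* (5.18, SE 0.221 and 4.90, SE 0.183) and *Lefty2* (3.8, SE 0.191 and 4.09, SE 0.178) leading. Of these 12 genes, 5 were called lower with retinoic acid alone, with *Foxh1* (−2.51, SE 0.142), *Eomes* and *Lefty2* (−1.98, SE 0.223) leading, and 7 higher in IM2 against IM1.

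Wnt response genes did not show a call with CHIR99021 in edgeR's quasi-likelihood test. Of 12, 5 had an adjusted p of at most 0.05 and were higher in IM4 against IM3, and 8 in IM5 against IM2, with medians of 0.45 and 0.56. Over all genes, 2.2% and 8.55% reached that threshold in either direction. By unadjusted p under 0.05, 7 and 10 of the 12 were higher, against 12.1% and 22% of all genes in either direction, and DESeq2 called 0 of the 12 in both comparisons. In IM4 against IM3, 0 genes of the limb, target and Activin lists were called by edgeR or by DESeq2, with 5 of 15, 6 of 12 and 0 of 12 at an unadjusted p under 0.05. In IM5 against IM2, both tools called 0 of the target, retinoic acid and Activin genes, with 5, 8 and 4 of 12 at that level, where 22% of all genes were, and *Pitx1* alone among the limb partners. The Wnt list had 6 calls higher in each Activin A comparison, led by *T*, *Sp5* (3.31, SE 0.204 and 2.91, SE 0.162) and *Cdx1* (2.77, SE 0.276 and 2.53, SE 0.244), and 4 calls lower with retinoic acid, led by *T*, *Dkk1* (−2.51, SE 0.0881) and *Notum* (−2.08, SE 0.179). In IM2 against IM1, 2 were called higher and 4 lower, with *Cdx1* (2.89, SE 0.254), *Notum* (−1.88, SE 0.166) and *Sp5* (1.47, SE 0.145) the largest.

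*Tbx2* had its highest level in iSLC. It measured 114, 109 and 110 TPM in iSLC against 15.9, 16.4 and 12.5 TPM in IM3 (7.5-fold, log2 2.91, SE 0.0973, adjusted p = 1.29e-19), and no library of the other 8 groups exceeded 27.5 TPM. This log2 fold change depended on the processing and lay between 2.14 and 2.92 over 11 alternative settings. *Tbx4* was at 0.55, 0.70 and 0.58 TPM in iSLC (−3.34 against IM3, SE 0.155), *Tbx5* at 3.91, 3.90 and 4.10 TPM (−2.57, SE 0.117), *Tbx18* at 3.56, 3.85 and 3.30 TPM (−1.77, SE 0.0993) and *Tbx20* at 23.5, 23.3 and 21.9 TPM (−1.42, SE 0.0560). So 1 gene was called higher and 4 lower, where 19.2% of all genes tested were called (10.3% higher and 8.92% lower). From IM3 to iSLC the mesothelium genes went from 922 to 987 TPM to 189 to 199 TPM in sum, with 4 of 6 called lower, and the heart muscle genes from 594 to 913 TPM to 239 to 243 TPM, with 8 of 12 called lower. The red blood cell genes went from 21.3 to 74.4 TPM to 1.65 to 2.18 TPM, the embryonic globin and erythroid genes from 96.7 to 119 TPM to 0.1 to 0.27 TPM and the endothelial genes from 46.3 to 54.3 TPM to 26.9 to 29.5 TPM. Whether these marker genes track cell types, and the part of such cells in the T-box values, was not tested. *Tbx3* (−0.29, SE 0.0709) and *Tbx15* (0.86, SE 0.153) were not called, and *Tbx1* was at 0.04 to 0.12 TPM. *Tbx2* and *Tbx4*, though neighbours on chromosome 11, thus changed in opposite directions in this comparison, and of *Tbx3* and *Tbx5* on chromosome 5 only *Tbx5* was called.

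Genes whose start sites lie within 20 kb of a member were read beside it. *2610027K06Rik*, a noncoding transcript that starts at base −328 relative to the start of *Tbx2*, on the other strand, averaged 0.65 to 0.99 TPM in IM1 to IM5 and 4.26 ± 0.180 TPM in iSLC (log2 2.15 against IM3, SE 0.363, under the count minimum). *Tbx3os1*, an antisense transcript that overlaps 1.7% of the exon bases of *Tbx3*, averaged 0.763 TPM in IM3 and 9.52 TPM in iSLC (3.45, SE 0.238, also under the count minimum), while *Tbx3* itself averaged 19.9 and 14.9 TPM. *D030062O11Rik* overlaps 20.6% of the exon bases of *Tbx18* on the other strand and did not average more than 0.467 TPM in any group. Since the use of strand in the counting is not stated, reads in such overlaps cannot be assigned to a strand with certainty, and the values of *Tbx18* and *Tbx3* include that uncertainty. *Gm43050* near *Tbx5*, *Gm37374* near *Tbx18* and *Gm11444* near *Tbx2* did not average more than 0.677 TPM, and *4930588K23Rik* near *Tbx1* was listed at 0 in all libraries.

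The genes whose pattern over the 9 groups was most like that of a member were found by Pearson's r over the 9 group means of log2 CPM, among 13477 genes with a mean of at least 100 normalized reads. The 9 points share the libraries of all comparisons above, and r is given as a description. For *Tbx4* these genes were *Dhrs9* (r = 0.976), *Nckipsd* (0.972) and *Pi16* (0.97). *Tbx18* was followed by *Tsnax* (0.99), *Upk1b* (0.984), a uroplakin gene of mesothelium that averaged 39.3 TPM in IM3 and 4.36 TPM in IM1, and *Agfg2* (0.982). The list for *Tbx5* was *Hacd4* (0.992), *Rps6ka3* (0.988) and *Ankib1* (0.987), for *Tbx2* *Btd* (0.995), *Cmtm3* (0.994) and *Gm29331* (0.994), for *Tbx20* *Aida* (0.994), *Stxbp3* (0.989) and *Mblac2* (0.987), and for *Tbx15* *Brap* (0.989), *Plcd3* (0.988) and *Stambpl1* (0.973). *Tbx3* had the lowest values but for *Tbx1*, with *Kctd9* (0.957), *Pibf1* (0.955) and *Ap3b1* (0.944), and *Tbx1* had *Aldh1l1* (0.933), *Tnfrsf11a* (0.922) and *Hdac4* (0.914). Among the members, r over the 9 groups was highest for *Tbx5* and *Tbx18* (0.891) and for *Tbx2* and *Tbx20* (0.881). Next came *Tbx5* and *Tbx20* (0.871) and *Tbx2* and *Tbx5* (0.833). It was 0.402 for *Tbx4* and *Tbx5*. All of these genes share the rise from ESC to the IM conditions.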

How the data were processed

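RNA of 27 mouse libraries (9 groups of 3) was sequenced by the authors as paired-end reads from TruSeq v2 libraries. Per the labels and the paper's methods, the authors trimmed with Cutadapt 1.9.1, aligned to GRCm38 with STAR 2.5.2a and ran RSEM 1.3.0. The deposited expected counts (estimated counts per gene, not normalized) were rounded and tested, and the deposited TPM was used for levels. Replicates were not pooled. With edgeR 4.0.16 (R 4.3.3), filterByExpr kept 20839 genes, TMM factors were computed and glmQLFit and glmQLFTest were run on all 27 libraries with a coefficient for each group. P-values were adjusted by Benjamini-Hochberg over all genes tested. Intervals are 95% (1.96 SE). Positions come from GENCODE M21 (GRCm38), which matched 48349 of 48795 genes (99.09%).

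The members, lists and comparisons were chosen with earlier results of these data known. Named are the T-box genes, up to 3 called genes of each list with the largest change per agent comparison, 3 genes most like each member and genes starting within 20 kb. *Gata4*, *Gata6*, *Hand2*, *Sall4*, *Nppa*, *Gja5*, *Nkx2-5*, *Pax2*, *Osr1*, *Amh*, *Pecam1* and the mesothelium genes fall outside that rule and were named after their values were seen. Equal replicate numbers deviated together (r 0.177 to 0.233 in 3 of 3 pairs) for IM4 and IM3, a hint from the data. They did so more weakly for IM3 and M (0.0683 to 0.103) and for IM1 and M (0.0183 to 0.0689). For IM2 and IM1 the pairs were mixed (−0.0489 to 0.199, mean 0.0995), and the mean of all pairs was 0.0193. No libraries of a group agreed within sampling noise (chi-square per degree of freedom 3.63 to 53.8). IM5 replicate 1 had the highest value (53.8 against replicate 2 and 35.3 against replicate 3), where replicates 2 and 3 gave 14.1. M replicate 2 also stood apart (29.8 and 38.5, against 7.07 for replicates 1 and 3). Without IM5 replicate 1 the *Tbx5* interaction was not called. The scripts were tested on simulated data. Precision is limited by 3 libraries a group. A count of 3 was set down as a floor of detection, for counting error only, and entered no filter or call. 1 gene that the rule names is not reported here. Other data of the study were not analysed here.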

Additional observations from a re-analysis of the deposited data

Results flagged for a closer look

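The effect of Activin A on *Tbx5* differed between cells without and with CHIR99021. The log2 fold change was −1.27 (SE 0.110) in IM2 against IM3 and −2.34 (SE 0.115) in IM5 against IM4. The test of the difference itself gave −1.07 (SE 0.156, adjusted p = 0.000666, edgeR's quasi-likelihood test). Each of the 3 IM5 libraries (3.51, 4.28 and 5.26 TPM) lay below each of the 3 IM2 libraries (9.12 to 10.6 TPM), whereas the libraries of IM4 and IM3 overlapped.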

How the results depend on the processing

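Across 1672 recomputed fold changes of the 8 genes, 1618 kept their direction and their side of the call, 24 gained a call, 7 lost one and 23, none of them called, changed sign. The number of members called moved from 3 to 6 without the count minimum (M against EpiSC), and without the fold minimum from 4 to 7 (IM3 against IM1 and IM5 against IM4), 2 to 5 (IM2 against IM1) and 3 to 6 (IM5 against IM2). Leaving out 1 library gave 2 to 3 members in IM5 against IM2 and 0 to 1 in the interaction, and changed no other count of members. Lost calls were *Tbx5* in IM1 against M when only these groups were fitted, by the count minimum over fewer libraries, *Tbx4* in IM5 against IM2 (0.99 with a GC offset, 0.991 with the replicate block and GC offset, 0.971 without IM2 replicate 3 and 0.959 without IM5 replicate 3) and *Tbx5* in the interaction (−0.998 without IM3 replicate 3 and −0.985 without IM5 replicate 1), where the cause was not tested beyond the distance to the fold minimum. The replicate block alone changed no call of a member, with 1 member called in the interaction as before.

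Reversed values with a GC offset, without and then with the replicate block, were −0.346 and −0.341 for *Tbx2* (EpiSC against ESC), 0.0811 and 0.113 for *Tbx1* (M against EpiSC), −0.197 and −0.2 for *Tbx2* and 0.0551 and 0.056 for *Tbx20* (IM2 against IM3), and −0.835 and −0.884 for *Tbx1* (iSLC against IM3). On leaving out 1 library the sign changed within these ranges, −1.14 to 0.224 for *Tbx1* and −0.0801 to 0.193 for *Tbx2* (EpiSC against ESC), −0.66 to 0.177 for *Tbx1* (M against EpiSC), −0.0131 to 0.158 for *Tbx2* and −0.102 to 0.0672 for *Tbx5* (IM4 against IM3), −0.0311 to 0.13 for *Tbx3* (interaction) and −0.328 to 0.401 for *Tbx1* (iSLC against IM3). The cause was not tested.

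Over all genes, dropping the count minimum raised the number called by 1.71 to 2.27 times in the 11 comparisons of groups, and dropping the fold minimum by 2.62 to 16.5 times. IM4 against IM3 called 21 genes, or 12 when only these groups were fitted. The interaction called 7 genes, 3 with a length offset or only these groups, 12 with DESeq2, 13 without the low-count filter and 36 without the fold minimum. With 3 libraries a group, differences of genes under about 1 TPM, such as *Tbx1*, have wide intervals.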
